A study of Mus musculus with 9 samples.

Results

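The genes described here form the smooth-muscle contractile program that differentiating muscle precursors and myofibroblasts can also express. The 10 members were chosen by name out of 52780 genes in the count table, with no threshold on measured values. They are the smooth-muscle actins Acta2 and Actg2, the actin-binding proteins Tagln, Cnn1, Smtn and Lmod1, the myosin subunits Myl9 and Myh11, and the transcriptional regulators Srf and Myocd. They were measured by poly(A) RNA-seq in C2C12, an immortal mouse myoblast line that fuses into myotubes after serum withdrawal. All cells were harvested on day 4 of differentiation. The 9 samples were 3 controls, labelled wild type in the deposit with no siRNA named, 3 with 10 nM siRNA against macroH2A1.1 (si mH2A1.1) and 3 with 10 nM siRNA against macroH2A1.2 (si mH2A1.2), which was delivered before, at and after the switch to differentiation medium. Both targets are splice isoforms of the same histone variant gene, H2afy, so the study could ask whether loss of one isoform changes expression differently from loss of the other. The study describes the replicates as independent biological replicates. All share the same cell line.

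Smooth-muscle cells contract through an actin and myosin system that differs from the sarcomere of skeletal muscle, and its genes are switched on by serum response factor (Srf). Srf binds the CArG box, a short AT-rich DNA element flanked by C and G pairs, and it activates contractile genes together with the coactivator myocardin (Myocd) or the related Mrtfa and Mrtfb, whose entry into the nucleus depends on actin polymerization. Myofibroblasts use the same genes, Acta2 above all, when they deposit and pull on matrix. Skeletal myoblasts transiently express several of them, Acta2 and Tagln included, before striated actins and myosins take over.

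CArG boxes were looked for on both strands in RefSeq promoter windows (GRCm38.p6), each covering the 250 bases before a transcript start and the first 50 bases from it, because the members share a regulator that is itself a member. The motif is the palindromic CArG box of 10 bases with its full consensus. It was present in 535 of 32851 mouse windows (1.63%), and 2 or more copies were present in 6 of them (0.0183%). A window was at hand for 6 of the 10 members, Acta2, Cnn1, Myl9, Smtn, Lmod1 and Srf. Srf (chr17:46556113-46556412, minus strand) held 2 boxes, starting at -82 and -62 from the transcript start. Myl9 (chr2:156775214-156775513, plus strand) held 1 box, at -161. Acta2 (chr19:34255324-34255623, minus strand) held no full box but had 2 copies 1 base away from one, at -84 and -34, a looser match that 19.9% of all windows contained. Lmod1 had 2 such copies, at -189 and -164. Cnn1 (chr9:22099003-22099302, plus strand) and Smtn had neither, and for them only this window was read. The windows of Srf, Myl9, Acta2 and Cnn1 are shown because these genes span the responses described in the following paragraphs. Capitals mark full boxes in Srf and Myl9 and the copies 1 base off in Acta2.
Srf: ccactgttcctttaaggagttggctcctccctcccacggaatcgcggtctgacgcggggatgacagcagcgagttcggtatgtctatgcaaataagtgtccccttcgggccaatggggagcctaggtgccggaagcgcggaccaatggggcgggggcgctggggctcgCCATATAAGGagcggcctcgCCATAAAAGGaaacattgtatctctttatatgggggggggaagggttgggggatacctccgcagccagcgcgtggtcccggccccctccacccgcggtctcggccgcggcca
Myl9: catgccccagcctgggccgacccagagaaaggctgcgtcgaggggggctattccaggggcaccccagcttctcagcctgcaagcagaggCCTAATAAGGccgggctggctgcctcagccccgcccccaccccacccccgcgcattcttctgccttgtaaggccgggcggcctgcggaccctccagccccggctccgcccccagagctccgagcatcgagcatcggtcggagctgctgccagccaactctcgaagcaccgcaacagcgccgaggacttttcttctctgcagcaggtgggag
Acta2: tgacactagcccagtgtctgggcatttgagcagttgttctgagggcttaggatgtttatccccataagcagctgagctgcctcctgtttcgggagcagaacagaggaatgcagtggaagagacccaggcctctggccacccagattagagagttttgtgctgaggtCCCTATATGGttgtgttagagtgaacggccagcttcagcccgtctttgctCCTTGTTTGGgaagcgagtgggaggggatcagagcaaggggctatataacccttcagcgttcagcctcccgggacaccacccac
Cnn1: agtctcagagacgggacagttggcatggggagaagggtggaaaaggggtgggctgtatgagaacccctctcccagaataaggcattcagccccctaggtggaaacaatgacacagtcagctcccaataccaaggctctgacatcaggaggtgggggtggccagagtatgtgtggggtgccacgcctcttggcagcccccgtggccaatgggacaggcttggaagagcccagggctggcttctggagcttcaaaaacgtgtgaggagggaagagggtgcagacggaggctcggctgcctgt

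**Figure D1:**
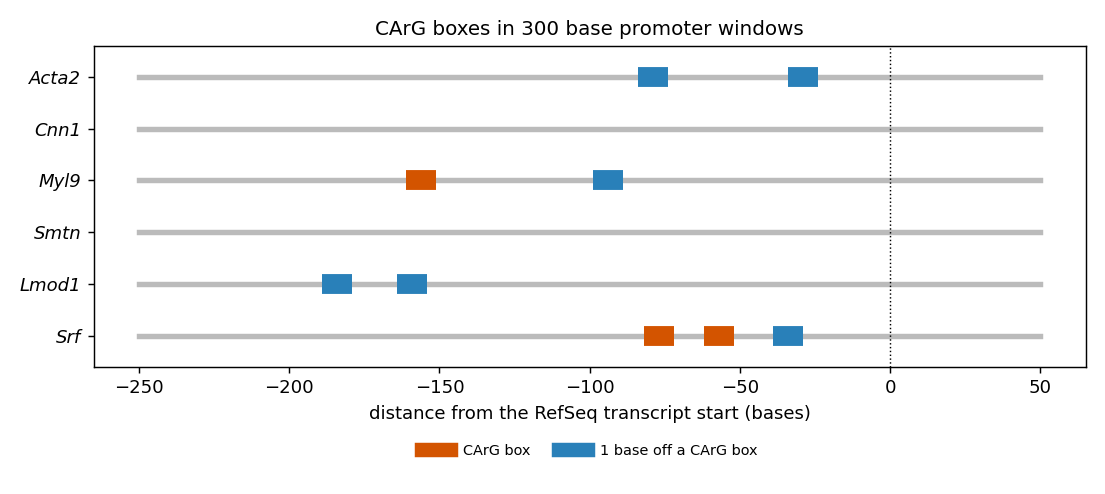
CArG boxes (orange) and copies 1 base off (blue) in the promoter windows of 6 genes, by distance in bases from the RefSeq transcript start (dotted line). Srf holds 2 full boxes, Myl9 holds 1, and Cnn1 and Smtn hold neither kind.

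The 9 libraries held 36924252 to 42223108 counts, so that 3 counts, taken as the lowest amount that can be told from 0 by counting error alone, stood for 0.0711 to 0.0812 CPM (counts scaled to a common library size). The targeted gene H2afy, counted over all its isoforms, lay at 56.3, 62.4 and 61.0 CPM in the controls, 38.8, 30.0 and 30.9 CPM with si mH2A1.1 and 46.8, 47.2 and 43.2 CPM with si mH2A1.2. Both knockdown groups lay below every control, with a log2 fold change of -0.85 ± 0.11 (SE, adjusted p = 0.00331, edgeR quasi-likelihood test) and -0.39 ± 0.11 (adjusted p = 0.108). The deposit names the cells myoblasts, yet all 11 skeletal myotube markers looked at passed the filter on low counts, with a summed level of 12692 to 23555 CPM in every sample. Interferon-stimulated genes differed between the groups, and 8 of 8 rose with si mH2A1.1 (adjusted p of 0.05 or less, beside 6.18% of all genes higher). They summed to 140 to 536 CPM there, against 31.9 to 39.0 CPM in the controls and 28.2 to 45.4 CPM with si mH2A1.2. Among them, Oas2 had 5 to 9 counts in the controls, 1185 to 8043 with si mH2A1.1 and 8 to 51 with si mH2A1.2. It passed the filter through the group where it was high. The part of the interferon-stimulated genes in the results given here was not tested.

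Myh11 and Myocd, both defining genes of mature smooth muscle, had few counts. Myh11, the smooth-muscle myosin heavy chain, had 20, 18 and 25 counts in the controls, 10, 10 and 21 with si mH2A1.1 and 12, 16 and 8 with si mH2A1.2. Myocd, the cofactor that commits cells to the smooth-muscle lineage, had 5, 1 and 0 counts in the controls, 13, 9 and 13 with si mH2A1.1 and 4, 1 and 7 with si mH2A1.2. Among 8 smooth-muscle and pericyte markers, 6 passed the filter, and the list summed to 892 to 1269 CPM over all samples. Most of that sum came from the adhesion ligand Npnt (603 CPM on average in the controls), the receptor Notch3 (324 CPM) and the proteoglycan Cspg4 (78.2 CPM). The mural channel subunit Kcnj8 had 0 to 4 counts and the signaling regulator Rgs5 had 0 to 12. The markers of this kind were thus not uniformly absent or present.

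Levels were compared between genes per length, as TPM, the counts per base of annotated exon scaled to the same total in every sample. In the controls Acta2 stood first, with 2561 ± 583 TPM (SD, n = 3). Myl9 (149 ± 26.8 TPM) and Smtn (127 ± 18.1 TPM) followed with overlapping ranges. Tagln (72.6 ± 26.1 TPM) and Srf (56.0 ± 1.49 TPM) also overlapped. Below them came Actg2 (35.2 ± 9.0 TPM), Lmod1 (9.12 ± 2.43 TPM), Cnn1 (1.28 ± 0.500 TPM), Myh11 (0.198 ± 0.0223 TPM) and Myocd (0.0232 ± 0.0307 TPM), and the neighbours from Actg2 down did not overlap. With si mH2A1.2 Tagln stood next to Acta2 at 220 ± 53.5 TPM, overlapping Myl9 at 200 ± 31.9 TPM, and Actg2 (78.7 ± 21.3 TPM) stood above Srf (47.3 ± 1.22 TPM). With si mH2A1.1 Tagln was at 29.7 ± 11.8 TPM, below Srf at 70.4 ± 11.4 TPM, and it overlapped Actg2 at 22.9 ± 2.18 TPM. Acta2 kept the first place in all 3 groups.

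**Figure D2:**
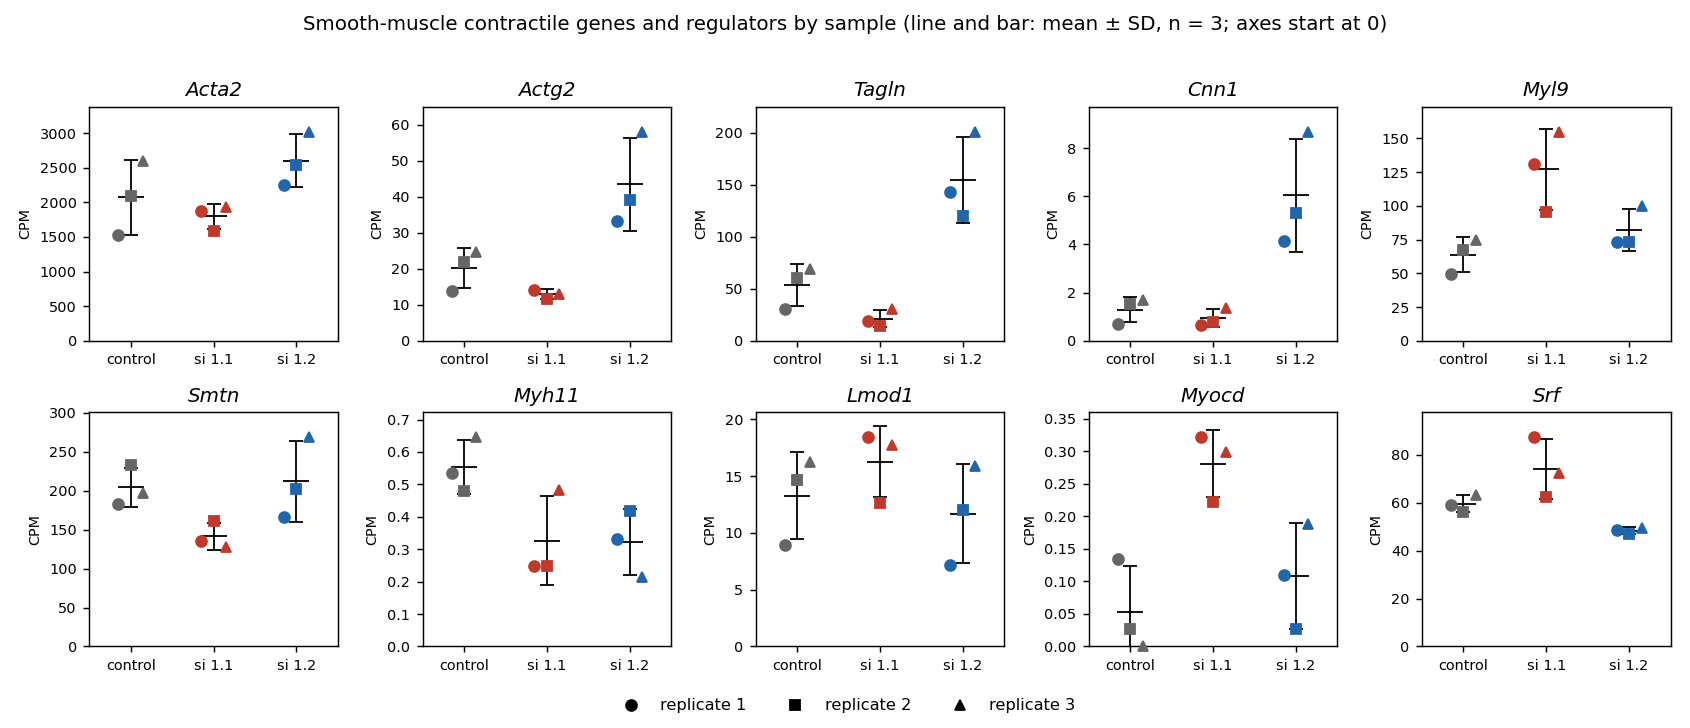
Level of each of the 10 genes in CPM (linear axes from 0) in the 3 control, 3 si mH2A1.1 (si 1.1) and 3 si mH2A1.2 (si 1.2) samples. Symbols are replicates and bars are mean ± SD, and all 3 si mH2A1.2 samples lie above all controls for Actg2, Tagln and Cnn1.

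Of the 9 members that passed the filter (Myocd did not), 3 rose with si mH2A1.2 against the controls, Actg2, Tagln and Cnn1, and none fell (called at an adjusted p of 0.05 or less in edgeR, where 2.35% of the 19545 genes tested were called, 1.37% higher and 0.982% lower). With si mH2A1.1 against the controls 2 were called, Myl9 upwards and Tagln downwards (11.1% of all genes called, 6.18% higher and 4.93% lower). Directly between the knockdowns 5 of 9 were called, with Srf higher and Actg2, Tagln, Cnn1 and Smtn lower after si mH2A1.1 (22.5% of all genes called, 12% higher and 10.5% lower). At an unadjusted p under 0.05 there were 4, 5 and 7 members in the same order, against 15.9%, 29.6% and 36.2% of all genes. By a stricter rule (adjusted p below 0.01 and a log2 change of 0.8 or more in size) there were 0, 0 and 3, against 0.179%, 1.8% and 6.38%. The samples of both groups did not overlap for 3 members above and 2 below the controls with si mH2A1.2 (22.5% of all genes, 11.7% above and 10.8% below). For si mH2A1.1 this held for 1 above and 1 below (34.2%, with 17.5% above and 16.7% below), and between the knockdowns for 1 above and 5 below (39.7%, with 20.3% above and 19.4% below). The median log2 fold change of the 9 was 0.33 with si mH2A1.2 against the controls, -0.47 with si mH2A1.1 and -0.53 between the knockdowns, beside a median within 0.01 of 0 over all genes. Both comparisons with the controls use the same 3 control samples, so the values are set side by side. A difference between the knockdowns is read only from the direct comparison. That comparison does not show on which side of the controls either knockdown lies. In bulk RNA, fewer cells of a type and less RNA per cell cannot be told apart.

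Smooth-muscle alpha-actin, Acta2 (ENSMUSG00000035783, GRCm38 chromosome 19, 34241090 to 34255590, minus strand), is the actin that myofibroblasts assemble into stress fibres. It was at 1524, 2096 and 2601 CPM in the controls, 1879, 1588 and 1927 CPM with si mH2A1.1 and 2249, 2544 and 3017 CPM with si mH2A1.2. The control samples spanned much of the range of both knockdowns, while every si mH2A1.1 sample lay below every si mH2A1.2 sample. Acta2 passed in none of the comparisons, with log2 fold changes of -0.21 ± 0.20 (SE, adjusted p = 0.522) for si mH2A1.1 and 0.33 ± 0.20 (adjusted p = 0.465) for si mH2A1.2 against the controls and -0.53 ± 0.20 (adjusted p = 0.0776) between the knockdowns. The last value passed with DESeq2 (adjusted p = 0.0329) and without a filter on low counts (adjusted p = 0.0468).

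Smooth-muscle gamma-actin, Actg2 (ENSMUSG00000059430, chromosome 6, 83512905 to 83536265, minus strand), the actin of the gut wall and bladder, was far less abundant. It lay at 13.9, 22 and 24.7 CPM in the controls, 14.2, 11.6 and 13 CPM with si mH2A1.1 and 33.1, 39.1 and 58.0 CPM with si mH2A1.2. All si mH2A1.2 samples stood above all others, and the si mH2A1.1 samples overlapped the lowest control. Actg2 rose 2.15-fold with si mH2A1.2 (log2 1.1 ± 0.24, adjusted p = 0.0438) and was -0.64 ± 0.24 with si mH2A1.1 (adjusted p = 0.104). Between the knockdowns it was 3.36-fold lower after si mH2A1.1 (log2 -1.75 ± 0.24, adjusted p = 0.00131).

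The 6 actin genes show where both smooth-muscle actins stand in these cells. Acta1, the skeletal actin, and Actc1, the cardiac actin of immature muscle, had 6395 ± 1327 and 4469 ± 1077 TPM in the controls, and the cytoplasmic Actb and Actg1 had 1529 ± 136 and 2352 ± 418 TPM. Neither these 4 genes nor Acta2 were called in any of the 3 comparisons, and Actg2 was called in both comparisons with si mH2A1.2. Acta2 made up 13.3% to 15.8% of the summed actin TPM in the controls, 12.4% to 15% with si mH2A1.1 and 18.1% to 20.0% with si mH2A1.2. This share in si mH2A1.2 did not overlap the other groups, although the CPM of Acta2 overlapped the controls. A share also depends on the levels of the other actins. Actc1 made up 23.4% to 28.4% in the controls, 16.8% to 21.5% with si mH2A1.1 and 17.1% to 19.7% with si mH2A1.2. Actg2 made up 0.172% to 0.219%, 0.128% to 0.155% and 0.393% to 0.500%. These shares were not tested.

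**Figure D3:**
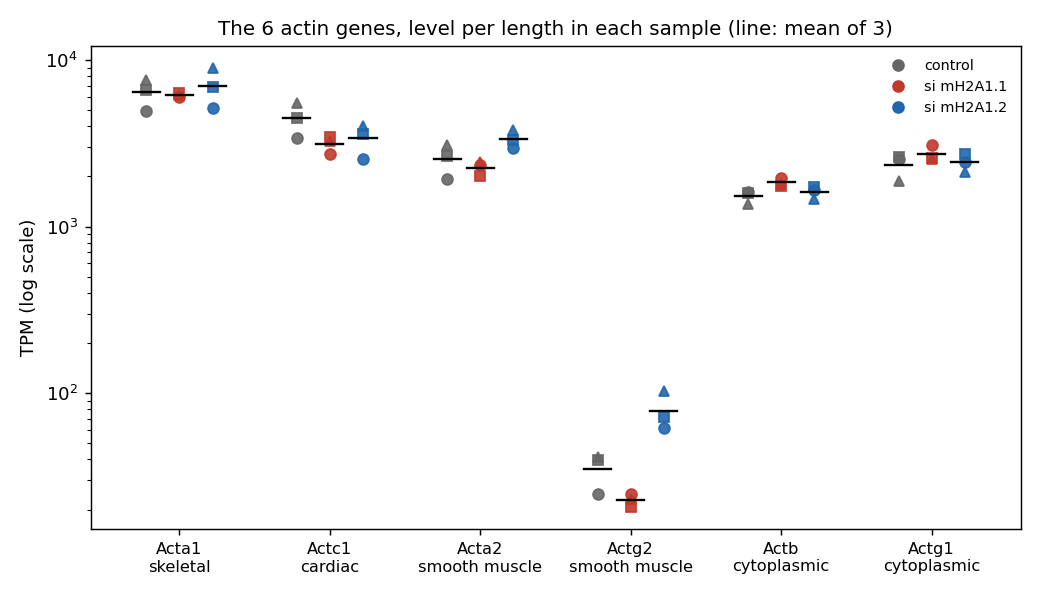
TPM (log axis) of the 6 actin genes in every sample of the 3 groups, with a line at the mean of 3. Actg2 is the least abundant with the si mH2A1.2 samples above all others. For Acta2 they stand above the si mH2A1.1 samples, and Actb is higher in all si mH2A1.1 samples without being called.

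Transgelin, Tagln (ENSMUSG00000032085, chromosome 9, 45929619 to 45936058, minus strand), also called SM22-alpha, crosslinks actin filaments and is an early marker of smooth-muscle differentiation. It was at 30.5, 60.5 and 68.9 CPM in the controls, 18.7, 14.5 and 30.8 CPM with si mH2A1.1 and 143, 120 and 201 CPM with si mH2A1.2. The highest si mH2A1.1 sample was just above the lowest control, and the lowest si mH2A1.2 sample was above the highest control. Tagln fell 2.49-fold with si mH2A1.1 (log2 -1.32 ± 0.34, adjusted p = 0.0354) and rose 2.90-fold with si mH2A1.2 (log2 1.54 ± 0.34, adjusted p = 0.0460). The direct comparison gave the widest gap of all members, 7.24-fold lower after si mH2A1.1 (log2 -2.86 ± 0.35, adjusted p = 0.00073). The gene overlaps Pcsk7 and the antisense transcript Gm48529 on the opposite strand, 58.3% of the 50-base windows of its transcripts occur in another gene, and the counting strand is not given in the sources used here. Gm48529 itself held 28 to 115 counts and Pcsk7 1052 to 1582, against 589 to 7487 for Tagln.

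Calponin 1, Cnn1 (ENSMUSG00000001349, chromosome 9, 22099216 to 22109630, plus strand), slows actomyosin and is a marker of contractile smooth muscle. It was scarce, with 26, 57 and 65 counts in the controls (0.696, 1.52 and 1.68 CPM), 27, 31 and 59 counts with si mH2A1.1 (0.667, 0.766 and 1.36 CPM) and 151, 204 and 323 counts with si mH2A1.2 (4.16, 5.32 and 8.67 CPM). Every si mH2A1.2 sample was above every other sample, and the other groups overlapped. Cnn1 rose 4.65-fold with si mH2A1.2 (log2 2.22 ± 0.40, adjusted p = 0.0247), the widest change of a member against the controls, and was -0.47 ± 0.41 with si mH2A1.1 (adjusted p = 0.477). Between the knockdowns it was 6.46-fold lower after si mH2A1.1 (log2 -2.69 ± 0.41, adjusted p = 0.00189).

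In the main fit, which had no replicate block, the calls of these 3 genes against the controls rest on all samples. Leaving out any single control, si mH2A1.2 replicate 2 or si mH2A1.2 replicate 3 left 0 members called with si mH2A1.2, and leaving out si mH2A1.2 replicate 1 left 1. Leaving out any si mH2A1.1 sample, which enters this contrast through the shared spread, left 2. With every sample in the fit 3 were called by DESeq2, and with only the control and si mH2A1.2 samples edgeR called 1. With the replicate number as a block edgeR kept all 3, at adjusted p = 0.0180 for Actg2, 0.0115 for Tagln and 0.00541 for Cnn1. With 1 sample left out the log2 fold changes stayed between 0.84 and 1.26 for Actg2, 1.26 and 1.76 for Tagln and 1.87 and 2.44 for Cnn1. In the direct comparison the calls of all 3 were kept in 9 of 9 such fits, with a highest adjusted p of 0.00796, 0.0054 and 0.0106. The fall of Tagln with si mH2A1.1 was kept in 5 of 9, and it was lost without control replicate 2, control replicate 3, si mH2A1.1 replicate 1 or si mH2A1.1 replicate 2, with an adjusted p of up to 0.131.

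Smoothelin, Smtn (ENSMUSG00000020439, chromosome 11, 3517523 to 3540612, minus strand), binds actin in contractile smooth muscle and also has forms found more widely. It was at 183, 232 and 197 CPM in the controls, 136, 161 and 128 CPM with si mH2A1.1 and 166, 202 and 268 CPM with si mH2A1.2. The si mH2A1.1 samples were the 3 lowest, and the si mH2A1.2 samples lay on both sides of the controls. Relative to the controls Smtn had a log2 fold change of -0.53 ± 0.17 after si mH2A1.1 (adjusted p = 0.0730) and one of 0.05 ± 0.17 after si mH2A1.2 (adjusted p = 0.916). Between the knockdowns it was 1.5-fold lower after si mH2A1.1 (log2 -0.58 ± 0.17, adjusted p = 0.0363), a call lost without si mH2A1.1 replicate 1 or 3 or si mH2A1.2 replicate 2 or 3 (adjusted p up to 0.119). With DESeq2 the first of these values also passed (adjusted p = 0.0361). Smtn shares 9.46% of its 50-base windows with the opposite-strand transcript Gm11946, which held 21 to 65 counts.

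Leiomodin 1, Lmod1 (ENSMUSG00000048096, chromosome 1, 135324807 to 135368065, plus strand), nucleates actin filaments in smooth muscle. It was at 8.97, 14.6 and 16.2 CPM in the controls, 18.4, 12.7 and 17.8 CPM with si mH2A1.1 and 7.18, 12.0 and 15.9 CPM with si mH2A1.2. All 3 groups overlapped. Its log2 fold changes were 0.29 ± 0.29 (adjusted p = 0.537), -0.18 ± 0.29 (adjusted p = 0.827) and, between the knockdowns, 0.48 ± 0.29 (adjusted p = 0.270).

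The myosin regulatory light chain Myl9 (ENSMUSG00000067818, chromosome 2, 156775420 to 156781658, plus strand) is phosphorylated to start contraction in smooth muscle and in stress fibres. It followed another order than Actg2, Tagln and Cnn1. It was at 49.4, 67.5 and 74.4 CPM in the controls, 131, 95.5 and 155 CPM with si mH2A1.1 and 73.3, 73.4 and 100 CPM with si mH2A1.2. The si mH2A1.1 samples were all above the controls, and the lowest of them lay below the highest si mH2A1.2 sample. Myl9 rose 1.99-fold with si mH2A1.1 (log2 1.00 ± 0.21, adjusted p = 0.0169) and was 0.37 ± 0.20 with si mH2A1.2 (adjusted p = 0.427). The difference between the knockdowns was 0.63 ± 0.20 on the log2 scale (adjusted p = 0.0507), which passed with DESeq2 (adjusted p = 0.0206), DESeq2's size factors in edgeR (adjusted p = 0.0493), no filter (adjusted p = 0.0246) and a minimum of 10 counts (adjusted p = 0.0436). The rise with si mH2A1.1 was lost without control replicate 2 or si mH2A1.1 replicate 1 or 3 (adjusted p up to 0.0665).

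Of the nonmuscle relatives, Myl12a was much more abundant than Myl9 in the controls, and Myh9 and Myh10 much more than Myh11. Myl12b was closer to Myl9 (149 ± 26.8 TPM) and Myh14 to Myh11, at 0.280 ± 0.107 TPM. With si mH2A1.1 Myl9 was at 302 ± 70.5 TPM and Myl12b at 194 ± 35.5 TPM. Myl12a and Myl12b, the cytoplasmic regulatory light chains, had 587 ± 31.5 and 196 ± 26.9 TPM in the controls and passed in none of the comparisons. Myh9, the major nonmuscle myosin heavy chain, had 371 ± 53.9 TPM and Myh10 26.1 ± 3.34 TPM, against 0.198 TPM for Myh11 (ENSMUSG00000018830, chromosome 16, 14194535 to 14291372, minus strand). Myh11 itself had log2 fold changes of -0.75 ± 0.37 (adjusted p = 0.204), -0.78 ± 0.38 (adjusted p = 0.350) and, between the knockdowns, 0.03 ± 0.39 (adjusted p = 0.970). These values rest on 8 to 25 counts a library.

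Srf (ENSMUSG00000015605, chromosome 17, 46548329 to 46556175, minus strand), is the transcription factor of the program. It was at 59.2, 56.3 and 63.2 CPM in the controls, 87.2, 62.2 and 72.2 CPM with si mH2A1.1 and 48.8, 46.7 and 49.5 CPM with si mH2A1.2. The si mH2A1.2 samples were the 3 lowest, and 1 of the si mH2A1.1 samples lay within the controls. Relative to the controls the log2 fold changes of Srf were 0.31 ± 0.12 for si mH2A1.1 (adjusted p = 0.110) and, for si mH2A1.2, -0.30 ± 0.12 (adjusted p = 0.243). Between the knockdowns it was 1.53-fold higher after si mH2A1.1 (log2 0.61 ± 0.12, adjusted p = 0.00617), kept in 9 of 9 fits with 1 sample left out. Srf was thus higher in the knockdown in which Actg2, Tagln, Cnn1 and Smtn were lower.

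Myocd (ENSMUSG00000020542, chromosome 11, 65176561 to 65269989, minus strand) failed the filter on low counts and was not tested. All 3 si mH2A1.1 libraries held more of its counts than any other library, 9 to 13 against 0 to 7. In a fit without the filter its adjusted p was 0.0829 for si mH2A1.1 against the controls, 0.767 for si mH2A1.2 and 0.277 between the knockdowns. The related cofactors were expressed, Mrtfa at 39.3 ± 3.05 TPM and Mrtfb at 15.3 ± 1.69 TPM in the controls.

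**Figure D4:**
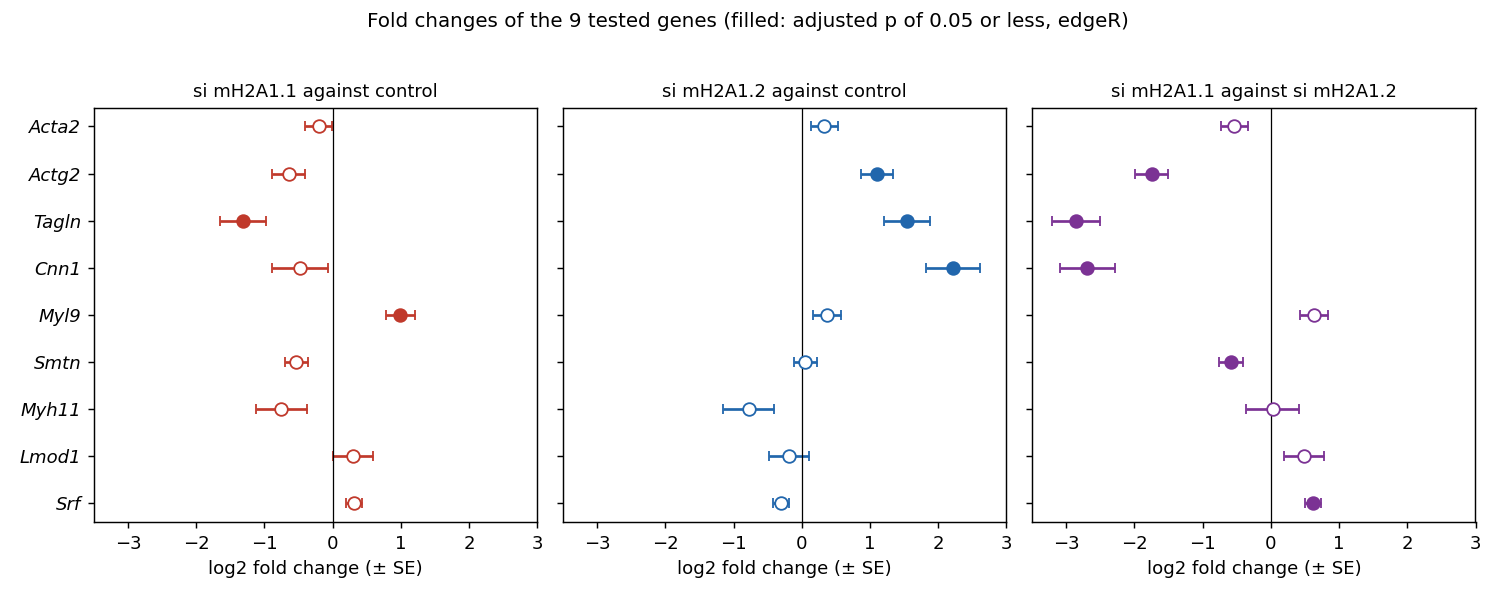
Log2 fold change with its SE for the 9 tested genes in the 3 comparisons, filled where the adjusted p was 0.05 or less. Tagln and Cnn1 lie farthest from 0 between the knockdowns, at -2.86 and -2.69, and Myl9 and Srf lie on the other side of 0.

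The same samples were often lowest or highest for several members. Control replicate 1 was the lowest control for 7 of the 9 tested members and control replicate 3 the highest for 8. With si mH2A1.2, replicate 1 was the lowest for 6 and replicate 3 the highest for 8. With si mH2A1.1, replicate 2 was the lowest for 6 and replicate 3 the highest for 5.

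Srf acts through partner proteins, and 14 of 17 listed cofactors and counter-regulators passed the filter. Between the knockdowns 4 were higher after si mH2A1.1 and 4 lower, out of 14 (12% and 10.5% of all genes). The higher ones included the Notch-responsive repressor Hey1 (log2 2.55 ± 0.35, adjusted p = 0.00111), the skeletal muscle coactivator Mamstr (1.31 ± 0.33, adjusted p = 0.0182) and Heyl, a relative of Hey1 (1.01 ± 0.32, adjusted p = 0.0480). The lower ones included Hopx, a homeodomain protein that restrains Srf (-2.21 ± 0.37, adjusted p = 0.00301), the LIM protein Fhl2 (-1.00 ± 0.17, adjusted p = 0.00330) and the TGF-beta mediator Smad3 (-0.66 ± 0.15, adjusted p = 0.0142). Without si mH2A1.2 replicate 2 there were 5 calls in place of 8. Mrtfb was also higher after si mH2A1.1 (0.41 ± 0.09, adjusted p = 0.0103), and Mrtfa was called in no comparison.

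Against the controls, si mH2A1.1 raised Hey1 (1.46 ± 0.33, adjusted p = 0.0229) and lowered Hopx (-1.39 ± 0.36, adjusted p = 0.0378) and the ternary complex factor Elk4 (-0.45 ± 0.10, adjusted p = 0.0247). These 3 were 21.4% of the 14 tested, against 11.1% of all genes. The count dropped to 0 without control replicate 2 or si mH2A1.1 replicate 1. It dropped to 1 without control replicate 3 or si mH2A1.1 replicate 3. With si mH2A1.2 edgeR called 0 of the 14 cofactors, with 6 at an unadjusted p under 0.05, 3 called by DESeq2 and 4 with the replicate number as a block.

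Beyond the members, 32 of 34 listed genes of the smooth-muscle apparatus passed the filter. Between the knockdowns 8 were lower and 4 higher after si mH2A1.1 (37.5% of the list called, against 22.5% of all genes), with a list median of -0.20. The lower ones were led by the amine oxidase Aoc3 of smooth-muscle membranes (-2.52 ± 0.42, adjusted p = 0.00298), the LIM protein Csrp2, a partner of Srf in smooth muscle (-1.85 ± 0.15, adjusted p = 0.000147), and the integrin subunit Itga8 (-1.51 ± 0.32, adjusted p = 0.00863). The higher ones were led by the intermediate filament proteins Synm (1.25 ± 0.20, adjusted p = 0.00243) and desmin, Des (1.07 ± 0.14, adjusted p = 0.000844), and by Pdlim3 (0.99 ± 0.24, adjusted p = 0.0160), which are used in striated muscle as well.

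Against the controls, 1 gene of this list rose and 3 fell with si mH2A1.1 (12.5% of the list called, near the 11.1% of all genes). Synm went upwards (0.94 ± 0.20, adjusted p = 0.0181). Itga8 (-1.67 ± 0.32, adjusted p = 0.0124), Csrp2 (-1.01 ± 0.15, adjusted p = 0.00468) and Cav1 (-0.87 ± 0.21, adjusted p = 0.0295) went downwards. The count of 4 dropped to 2 without control replicate 2 or si mH2A1.1 replicate 1 and to 1 without si mH2A1.1 replicate 3. With si mH2A1.2, Csrp2 (0.84 ± 0.15, adjusted p = 0.0234) and caldesmon, Cald1 (0.61 ± 0.11, adjusted p = 0.0247), rose and Des fell (-0.62 ± 0.14, adjusted p = 0.0466). These calls were 9.38% of the list, against 2.35% of all genes. With the replicate number as a block 6 genes of the list were called with si mH2A1.2. Without control replicate 1 or 3 or si mH2A1.2 replicate 1 or 2 none was called, and without control replicate 2 there was 1. Csrp2, from 47.4 ± 11.2 CPM in the controls to 23.5 ± 1.96 CPM and 84.6 ± 3.01 CPM, was the gene of this list that passed in all 3 comparisons.

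All 22 listed cytoskeletal targets of the Mrtf and Srf pair passed the filter. Between the knockdowns 3 were higher and 4 lower after si mH2A1.1 (31.8% of the list called, against 22.5% of all genes). The higher ones were Fhl1 (1.13 ± 0.27, adjusted p = 0.0161), the actin disassembly factor Wdr1 (0.71 ± 0.11, adjusted p = 0.00237) and Tpm1 (0.60 ± 0.16, adjusted p = 0.0219). The 4 lower ones were the matricellular genes Ccn2 (-2.84 ± 0.47, adjusted p = 0.00292) and Ccn1 (-0.86 ± 0.18, adjusted p = 0.00959) with Fhl2 and Csrp1. Without si mH2A1.2 replicate 2 there were 4 calls. Fhl1 rose with si mH2A1.1 against the controls (1.33 ± 0.27, adjusted p = 0.0168), the one call of edgeR in that comparison beside 3 by DESeq2, which was lost without control replicate 2 or 3 or si mH2A1.1 replicate 1 or 3. The 1 call was 4.55% of the list, against 11.1% of all genes. The count was 3 without control replicate 1 and 2 without si mH2A1.1 replicate 2. With si mH2A1.2 edgeR and DESeq2 called 0 of 22, with 6 at an unadjusted p under 0.05 and 2 with the replicate number as a block. The list medians were -0.01 with si mH2A1.1 against the controls, 0.06 with si mH2A1.2 and -0.05 between the knockdowns.

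Of 9 immediate early targets of Srf, which respond through Elk proteins rather than myocardin, 3 were lower after si mH2A1.1 than after si mH2A1.2 (10.5% of all genes were lower). They were Egr2 (-1.74 ± 0.23, adjusted p = 0.00105), Fosb (-1.1 ± 0.36, adjusted p = 0.0490) and Junb (-0.89 ± 0.16, adjusted p = 0.00409). Against the controls Egr2 rose with si mH2A1.2 (1.19 ± 0.23, adjusted p = 0.0296) and Egr3 with si mH2A1.1 (1.41 ± 0.34, adjusted p = 0.0292). Each was 11.1% of the list, beside 2.35% of all genes with si mH2A1.2 and 11.1% with si mH2A1.1. The call of Egr2 was lost without any single control or si mH2A1.2 sample, and that of Egr3 without control replicate 1 or 2 or si mH2A1.1 replicate 1 or 3.

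Among the family relatives of the members, 28 of 29 passed the filter, and they include nonmuscle and striated counterparts. Between the knockdowns 8 were higher after si mH2A1.1 and 1 was lower (32.1% of the list called, against 22.5% of all genes), with a list median of 0.13. The higher ones were led by the smoothelin-like genes Smtnl1 (2.93 ± 0.46, adjusted p = 0.00217) and Smtnl2 (1.43 ± 0.23, adjusted p = 0.00288), and by the nonmuscle myosin heavy chain Myh14 (2.92 ± 0.38, adjusted p = 0.000911). Smtnl1 had 22 to 29 counts with si mH2A1.1, 5 to 12 in the controls and 2 to 5 with si mH2A1.2. It passed the filter through the group where it was high. The lower one was the calponin Cnn3 (-0.59 ± 0.11, adjusted p = 0.00509). The leiomodins of striated muscle, Lmod2 (0.73 ± 0.17, adjusted p = 0.0120) and Lmod3 (0.67 ± 0.16, adjusted p = 0.0143), were also higher. At 169 ± 27.5 and 123 ± 19.4 TPM in the controls they exceeded Lmod1 severalfold. The relatives Cnn2 (215 ± 37.2 TPM), Cnn3 (647 ± 51.6 TPM) and Tagln2 (269 ± 75.7 TPM) likewise exceeded Cnn1 and Tagln in the controls.

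Against the controls 5 relatives rose with si mH2A1.1, led by Myh14 (1.77 ± 0.35, adjusted p = 0.0142), Smtnl1 (1.36 ± 0.39, adjusted p = 0.0492) and Smtnl2 (1.26 ± 0.23, adjusted p = 0.0112). Smtnl1 stayed under 1 CPM in every group mean and passed the filter through the group where it was high. Its call was lost with DESeq2 (adjusted p = 0.0774), with the replicate number as a block (adjusted p = 0.0518) and with no filter (adjusted p = 0.0644). The 5 calls, Smtnl1 included, were 17.9% of the list, against 11.1% of all genes. The count was 1 to 3 without any single control or without si mH2A1.1 replicate 1 or 3. With si mH2A1.2 Lmod2 fell (-0.86 ± 0.17, adjusted p = 0.0297), which was 3.57% of the list, against 2.35% of all genes. This single call was lost without control replicate 1 or 3, si mH2A1.1 replicate 3, or si mH2A1.2 replicate 1 or 2, there were 2 calls without control replicate 2, and 4 relatives were called with the replicate number as a block.

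Myofibroblast markers are genes of matrix, its enzymes and its receptors. All 22 passed the filter, and between the knockdowns 14 were lower after si mH2A1.1 and 1 was higher, with a median of -1.18. Of the list 68.2% was called, against 22.5% of all genes. The lower ones were led by the collagen-binding integrin Itga11 (-5.03 ± 0.45, adjusted p = 0.000199), periostin, Postn (-3.88 ± 0.43, adjusted p = 0.000464), and the type I collagen chain Col1a1 (-3.79 ± 0.39, adjusted p = 0.00035). The higher one was the surface protease Fap (3.27 ± 0.44, adjusted p = 0.00108), at 1.23 ± 0.453 CPM with si mH2A1.1. Fap had 37 to 71 counts with si mH2A1.1, 5 to 9 in the controls and 2 to 7 with si mH2A1.2. It thus passed the filter only through the group where it was high. The study itself selected Itga11, Col1a1 and Fn1 on these samples, so their direction is not independent evidence.

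Against the controls, 8 of these markers fell and Fap rose with si mH2A1.1 (median -0.72), again led by Itga11 (-3.15 ± 0.43, adjusted p = 0.00383), Postn (-2.80 ± 0.41, adjusted p = 0.00472) and Col1a1 (-2.38 ± 0.37, adjusted p = 0.00558). This count of 9 was 40.9% of the list, against 11.1% of all genes. It dropped to 5 without control replicate 2 or si mH2A1.1 replicate 1. With si mH2A1.2, 6 rose (median 0.78), led by Cthrc1 (2.00 ± 0.35, adjusted p = 0.0234), Itga11 (1.88 ± 0.38, adjusted p = 0.0347) and the mesenchymal cadherin Cdh11 (1.72 ± 0.24, adjusted p = 0.0106). These 6 were 27.3% of the list, against 2.35% of all genes. There were 3 without any single control and 2 without si mH2A1.2 replicate 1 or 2.

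Summed levels of cell type markers are set beside these genes. The 22 myofibroblast markers summed to 25061 to 31799 CPM in the controls, 12135 to 18828 CPM with si mH2A1.1 and 40952 to 53683 CPM with si mH2A1.2, with no overlap. The largest parts in the controls were Fn1 (9087 CPM on average), Col3a1 (8596 CPM) and Col1a1 (2945 CPM). The study selected Fn1 and Col1a1 on these samples, so the separation of these sums is not independent evidence. Against the controls 13 of the 22 were not called with si mH2A1.1 and 16 were not called with si mH2A1.2. The 6 fibroblast markers summed to 8007 to 9726, 3424 to 5752 and 10163 to 13825 CPM, most of it Col3a1 (8596 CPM on average in the controls), which is in the myofibroblast list too. Of the 6, Lum and Col3a1 fell with si mH2A1.1 (33.3% called, against 11.1% of all genes). This count was 1 without control replicate 2 or si mH2A1.1 replicate 1 or 3. Dcn had 329 CPM on average in the controls and 342 CPM with si mH2A1.1. The 11 myotube markers summed to 14940 to 23555, 14515 to 18211 and 12692 to 16911 CPM, and the 8 smooth-muscle and pericyte markers to 989 to 1035, 892 to 1167 and 1037 to 1269 CPM. Among the myotube markers Actn2 and Myog fell with si mH2A1.1 and Actn2 and Tnnt3 with si mH2A1.2. The first count was 1 without control replicate 2 or 3 or si mH2A1.1 replicate 1 and 0 without si mH2A1.1 replicate 3, and the second was 1 without control replicate 1 or 3 or si mH2A1.2 replicate 1 or 2. Among the smooth-muscle and pericyte markers Abcc9 rose (2.18 ± 0.26, adjusted p = 0.00245) and Itga8 fell with si mH2A1.1. These calls were 33.3% of the 6 tested, against 11.1% of all genes. In the si mH2A1.2 samples edgeR and DESeq2 called 0 of the 6 tested, with 0 at an unadjusted p under 0.05. The 5 endothelial markers stayed at 4.86 to 8.92 CPM and the 5 leukocyte markers at 2.71 to 11.4 CPM, with the defining Adgre1 and Cd3e at 3 counts or fewer in every library. Of these, Tek and Cd68 rose with si mH2A1.1. They were 25% of the 4 endothelial and 100% of the 1 leukocyte marker tested, against 11.1% of all genes. The call of Tek was lost without any single control, si mH2A1.1 replicate 1 or 3, or si mH2A1.2 replicate 2. The part of these markers in the results of the contractile genes was not tested.

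**Figure D5:**
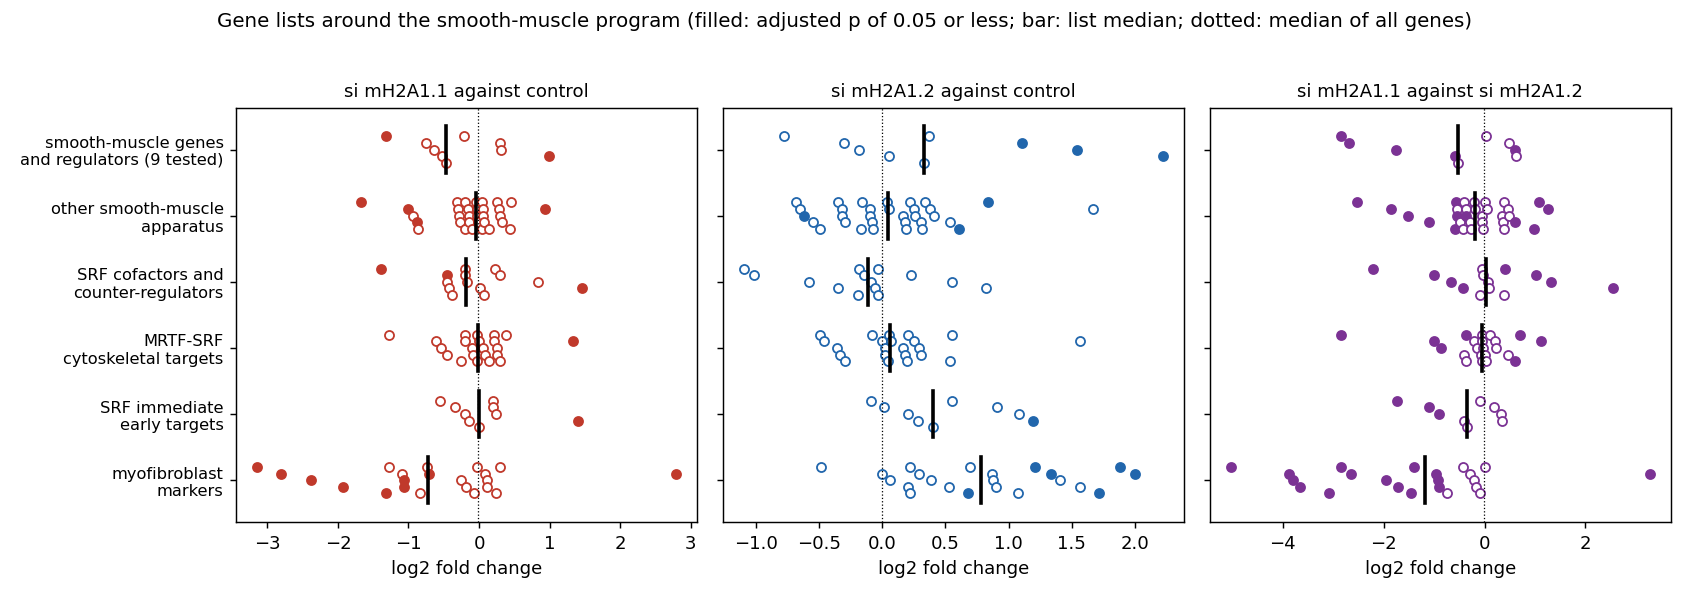
Log2 fold change of each tested gene by list in the 3 comparisons, filled where the adjusted p was 0.05 or less, with a bar at the list median and a dotted line at the median of all genes. Of the lists plotted, myofibroblast markers have the medians farthest from 0 (-0.72, 0.78 and -1.18), and the cytoskeletal targets stay near 0.

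The genes with profiles most like each tested member over the 9 samples are given as a description, by Pearson's r of log2 CPM among 14373 genes of at least 1 CPM on average. The 9 points share groups and replicate numbers and are not independent. Tagln was followed most closely by Igfbp7 (r = 0.984), Ccn2 (0.979) and Egr2 (0.978). Ccn2 and Egr2 are in the lists of Srf targets, and Ccn2 is in the myofibroblast list too. For Tagln and Srf themselves r was -0.797 over the 9 samples and 0.260 for deviations from the group means. Actg2 had Smad6 (0.982), Stk17b (0.980) and Igfbp7 (0.978), so Igfbp7, a secreted protein that binds insulin-like growth factors, stood near both. Cnn1 had Nfkb1 (0.982), Iglon5 (0.982) and Itgbl1 (0.981). Acta2 had Nr2f2 (0.977), the formin Fhod3 (0.969) and Pdzrn3 (0.968).

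Myl9 had Xlr (0.987), Rbm3 (0.973) and the interferon-inducible Ifi211 (0.958) as its nearest profiles. Srf had Rbm19 (0.991), Emc7 (0.989) and Ergic2 (0.987), and Smtn had Lsm11 (0.976), Ell (0.975) and Csnk2a2 (0.965). Lmod1 had Plekho1 (0.967), Cops5 (0.966) and Suclg2 (0.963). The values of Myh11 were the lowest, with Mok (0.884), Ccdc173 (0.883) and Magef1 (0.872).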

How the data were processed

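The members and gene lists were chosen with earlier results of these data known. The deposited table holds expected counts, which the authors estimated per gene with Salmon from single reads of 50 bases (mm10, quasi-mapping; the annotation and strand setting are not given in the sources used here) and deposited as whole numbers without normalization. A deposited table of the same counts divided by 1 factor per sample was not used. Gene names, positions and exon lengths came from GENCODE M21 (52762 of 52780 genes; GRCm38), promoters from RefSeq. TPM used merged exon length, and Salmon's effective lengths were not used.

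Groups came from the sample labels. Counts were tested in R 4.3.3 with edgeR 4.0.16 (quasi-likelihood, legacy form, TMM, filterByExpr, 19545 genes, 1 model of 9 samples, 3 contrasts) and Benjamini-Hochberg adjustment. Genes at an adjusted p of 0.05 or less were called. SE is the log2 fold change over the square root of F. CPM values are counts per library size times the TMM factor. The floor of 3 counts covers counting error only, while SD and SE also include the spread between replicates. The code was tested on simulated data. Replicate numbers were taken as paired between si mH2A1.2 and the controls, since deviations from the group means correlated at r = 0.331, 0.291 and 0.196 there and every pair exceeded 0.1. The labels state no pairing, although the numbers in the sample descriptions run consecutively across the 3 groups within each replicate number. The replicate number entered only as a block in an alternative fit. The main fit and the fits with 1 sample left out had no block. With the block 1005 in place of 460 genes were called in that contrast. Alternatives were DESeq2 1.42.0, its size factors, no filter, 10 counts in every sample, the replicate block, own groups only, a stricter rule (adjusted p below 0.01 and a change of 0.8 or more on the log2 scale) and leaving out each sample.

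Named genes were the members, H2afy, up to 3 called genes per list, direction and contrast by absolute log2 fold change, the 3 genes most like each member, and family relatives. Myh9, Myh10, Mrtfa, Csrp1, Cald1, Kcnj8 and Rgs5 follow from the lists, and Gm48529, Pcsk7 and Gm11946 from their overlap with members.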

Additional observations from a re-analysis of the deposited data

How the results depend on the processing

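Over all alternatives, 362 of 429 member values kept their direction and side of the threshold, 41 were no longer past it, 20 newly passed and 6 changed sign. Members called numbered 2 in the si mH2A1.1 and 3 in the si mH2A1.2 samples against the controls and 5 between the knockdowns, an order kept in the counts that follow. The stricter rule gave 0, 0 and 3, beside 5 and 4 members at an unadjusted p under 0.05 and 3 and 3 by DESeq2 in the comparisons with controls. With only the 2 groups of the contrast in the fit, 1 member was called with si mH2A1.2. Leaving out 1 sample gave 0 to 4, 0 to 2 and 4 to 7 members. All genes called numbered 2171, 460 and 4397, then 352, 35 and 1247 by the stricter rule, 3354 and 1113 in the control comparisons with DESeq2, and 605 to 2928, 74 to 544 and 2251 to 4616 with 1 sample left out. For si mH2A1.1 the replicate numbers did not pair by the rule used (r of 0.0841 to 0.0976 with the controls, 0.0917 to 0.116 with si mH2A1.2), although every sample correlated best with its own number. The replicate block called 4065 genes in the si mH2A1.1 and 1005 in the si mH2A1.2 samples against the controls, and 3, 3 and 7 members. It newly passed Acta2 (adjusted p = 0.0346) and Myl9 (0.0136) between the knockdowns and Smtn after si mH2A1.1 (0.0429), and it called 7 cytoskeletal targets there in place of 1. The signs that changed belonged to values near 0, given as log2 fold changes. Lmod1 with si mH2A1.2 ranged from -0.469 to 0.0659 with 1 sample left out and was positive without si mH2A1.2 replicate 1. Smtn with si mH2A1.2 ranged from -0.153 to 0.197 and was negative without control replicate 1 (-0.02) or si mH2A1.2 replicate 3. Myh11 between the knockdowns ranged from -0.374 to 0.26, negative without si mH2A1.1 replicate 3 or si mH2A1.2 replicate 3 (-0.19), and was -0.00687 with the replicate block. Of 576 list counts, 126 moved by over 1.5 times. The causes were not tested. With 3 samples a group an exact permutation test cannot go below 0.1, so single values rest on the fit over all genes, and at 0 to 25 counts Myh11 passed no test and Myocd was not tested.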
